A study of Mus musculus with 6 samples.

Results

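The genes described here are 9 neurotrophic factors and their receptors: the neurotrophin ligands Bdnf, Ntf3 and Ntf5, the GDNF family ligands Gdnf, Nrtn and Artn, and the neurotrophin receptors Ngfr, Ntrk2 and Ntrk3. They were chosen by exact match of the gene symbol in the deposited annotation, with no measured value used. All 9 were found, each on 1 transcript cluster, the probes that the array assigns to a gene or part of one, among 20793 genes that could be tested and 28853 clusters in all. RNA came from whole, intact digit tips of mice 8 weeks old, hybridised to 6 Affymetrix MoGene 1.0 ST arrays. The 3 control arrays are labelled wildtype, and the 3 others are labelled K14-CreER;Ctnnb1 cKO (cKO below). In the latter a Cre recombinase that needs an inducer, driven by the promoter of keratin 14, a protein of basal epidermal and nail cells, is meant to delete Ctnnb1, the gene of beta-catenin. Inducer, its timing and the floxed allele are not given in the sources used here, nor whether the controls carried CreER or received the inducer. The comparison asks which RNA levels differ in digit tips in which Ctnnb1 is meant to be deleted in that epithelium.

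Neurotrophic factors are secreted proteins that keep neurons alive and guide the growth of their axons, and skin is one of their classical sources. Neurotrophins are made as pro-proteins, are cut to the mature form, and act through Trk receptor tyrosine kinases and through Ngfr, the low-affinity receptor shared by the family. GDNF family ligands bind a GFR-alpha co-receptor and signal through the RET kinase. In skin, keratinocytes, dermal cells, Schwann cells and Merkel cells contribute ligands, while most Trk and RET signalling is in sensory nerve fibres, whose cell bodies, with most of their RNA, lie in the dorsal root ganglia outside the sample.

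All values are log2 signals set by the authors to the median of the controls, so each gene has a control median of 0, a level cannot be compared between genes, and whether a gene was above background cannot be read. For the same reason the labelled tissue could not be checked against the level of its markers. Ctnnb1, the targeted gene, read 0, -0.19 and 0.59 on the controls and -1.10, -0.87 and -1.06 on the cKO arrays, with no overlap. Its log2 difference, cKO minus control, was -1.14 ± 0.24 (limma standard error, n = 3 and 3) with an adjusted p of 0.0284. Dropping either of control replicates 1 and 3 (limma adjusted p 0.0795 and 0.138) or of cKO replicates 1 and 3 (0.0944 and 0.148) ended the call. Array medians over all clusters lay between -0.0086 and 0.0779. The array of cKO replicate 1 stood apart in sex-linked genes: Xist, the RNA of the inactive X chromosome, was at -5.84 there and between -0.39 and 0.08 on the other arrays, and the Y-linked Ddx3y was at 8.08 against -0.22 to 0.01. Results for the 9 genes are therefore also given without that array. In whole tissue, fewer cells of a type and less RNA per cell cannot be told apart.

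None of the 9 genes passed the test. In simulated data with 200 genes changed, fewer than the 403 called here, limma recovered 0% of 2-fold and 88% of 4-fold changes. These shares describe the simulation and need not hold for the arrays. On the arrays limma called some differences near 2-fold, such as Igf1 at 1.11 and Ctnnb1 at -1.14 (limma adjusted p 0.0298 and 0.0284). It left others uncalled, such as Lif at 1.02 and Egr2 at -1.02 (0.183 and 0.188). The lack of a call therefore does not show that a level was unchanged. Limma called 0 of 9 at an adjusted p under 0.05, where 1.94% of all genes were called, and the methods' t-test over the same values also called 0. At an unadjusted p under 0.05 there were 3 of 9, against 12.5% of all genes. The groups did not overlap in the same 3 genes, against 19.4% of all genes: Bdnf, whose cKO arrays were all lower than the lowest control, and Artn and Ntrk3, whose cKO arrays were all higher than the highest control. Bdnf and Ntrk3 were the 2 with a difference of at least 1.5-fold, a size that 9.93% of all genes reached. The median log2 difference of the 9 was -0.13, between -0.77 and 0.63, against -0.0044 over all genes, and the median size of the difference was 0.30 against 0.22. With 9 genes these shares rest on few members, and nothing particular to the 9 is read from them.

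**Figure D1:**
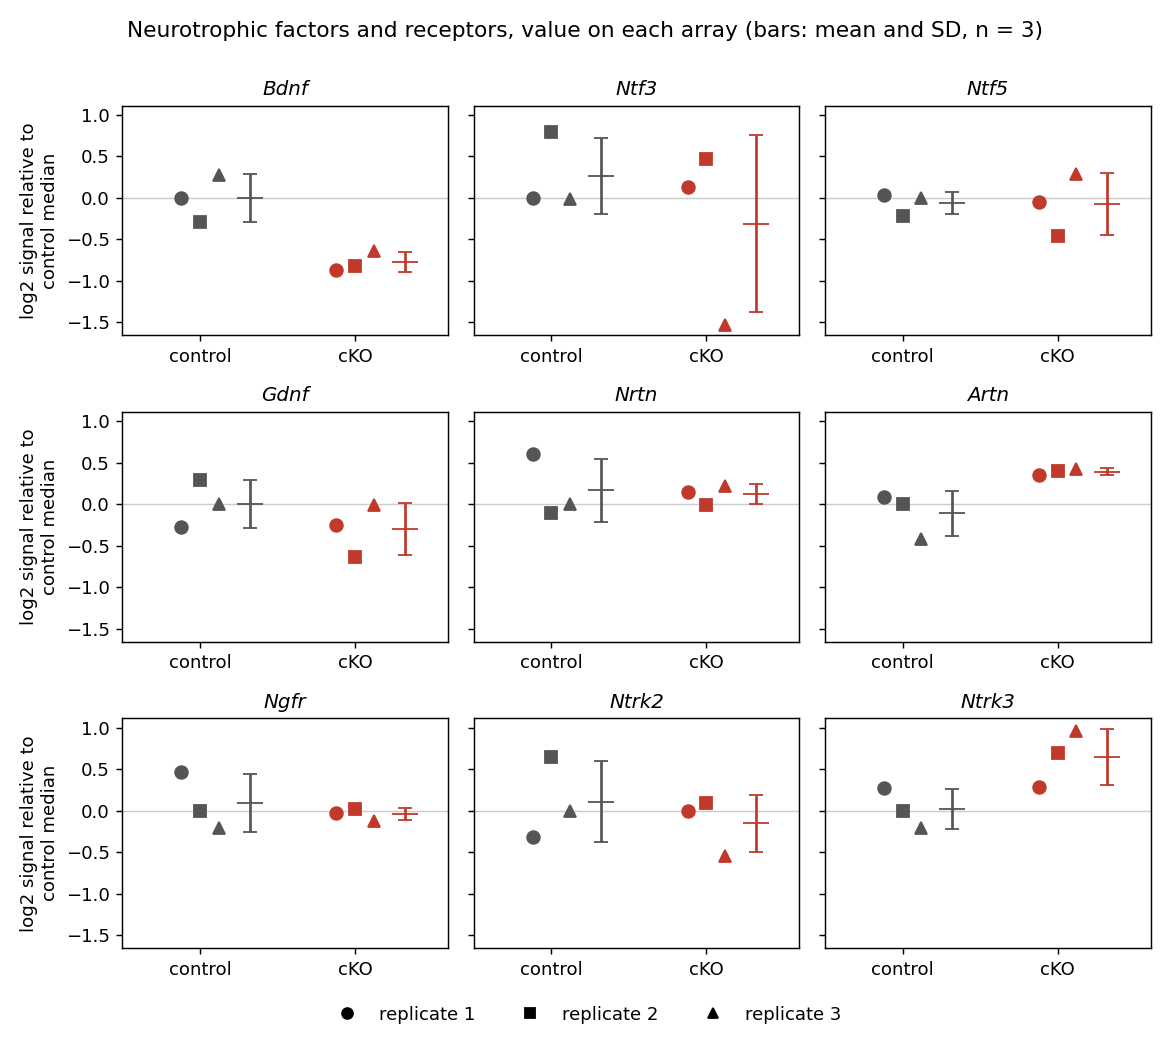
Log2 signal of each of the 9 genes relative to its control median (vertical axis) in 3 control and 3 cKO arrays, with the marker shape giving the replicate number and the bar the mean and SD of 3 arrays. The cKO points of Bdnf lie below all control points, those of Artn and Ntrk3 lie above, and 1 cKO array of Ntf3 lies at -1.53.

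The promoters of Bdnf and Artn are shown because their groups did not overlap, and one of Ntf3 because it alone held the motif searched. Beta-catenin acts in transcription with TCF/LEF factors, and the letters CTTTGA, a core of their known motif, were searched on both strands in RefSeq windows of build GRCm38.p6 from 250 bases before to 50 after a transcription start. Of 32851 such windows of all genes, 16% held the motif. Of 15 windows of 7 of the 9 genes 1 did, at an Ntf3 start, its first base at position -193 relative to the start. Ntrk3 and Ntf5 had no window in the table. The Bdnf window is the most upstream of 7, at chr2:109674450-109674749 on the plus strand, that of Ntf3 lies at chr6:126164911-126165210 on the minus strand, and that of Artn at chr4:117929714-117930013 on the minus strand. Sequences run 5′ to 3′ on the gene's strand, with the motif in capitals.
Bdnf: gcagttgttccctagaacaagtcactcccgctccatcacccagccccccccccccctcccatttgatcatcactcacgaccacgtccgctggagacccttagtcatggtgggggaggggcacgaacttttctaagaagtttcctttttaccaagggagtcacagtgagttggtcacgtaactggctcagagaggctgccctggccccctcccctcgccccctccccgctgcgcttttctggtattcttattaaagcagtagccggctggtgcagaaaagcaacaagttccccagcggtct
Ntf3: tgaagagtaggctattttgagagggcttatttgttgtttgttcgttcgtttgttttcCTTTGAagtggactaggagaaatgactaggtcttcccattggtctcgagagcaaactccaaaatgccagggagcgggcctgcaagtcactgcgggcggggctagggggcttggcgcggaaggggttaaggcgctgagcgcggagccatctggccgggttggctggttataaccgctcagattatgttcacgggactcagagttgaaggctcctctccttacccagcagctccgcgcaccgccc
Artn: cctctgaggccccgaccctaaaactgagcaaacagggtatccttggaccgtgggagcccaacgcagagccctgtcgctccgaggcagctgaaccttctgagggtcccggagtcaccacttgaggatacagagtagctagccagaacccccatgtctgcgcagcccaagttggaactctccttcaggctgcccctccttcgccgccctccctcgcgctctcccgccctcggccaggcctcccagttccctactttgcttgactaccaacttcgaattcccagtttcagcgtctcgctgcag
A match or its lack in these letters describes the window only.

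Among the neurotrophin ligands, Bdnf (brain-derived neurotrophic factor, a ligand of the Ntrk2 receptor) had the largest difference. Its values were 0, -0.29 and 0.28 on control replicates 1 to 3 and -0.87, -0.82 and -0.64 on the cKO arrays. The highest cKO array was thus below the lowest control, and the spread within the cKO (SD 0.12) was smaller than that within the controls (SD 0.28). Its log2 difference was -0.77 ± 0.22, a geometric mean of 58.5% of the control's, with a 95% interval from -1.25 to -0.29. The unadjusted limma p was 0.00408, rank 700 of 20793, and the adjusted p was 0.121, so the difference was not called. Leaving out 1 array at a time gave differences between -0.92 and -0.63, with -0.73 without cKO replicate 1, and adjusted p between 0.114 and 0.431. The lowest adjusted p over all alternatives was 0.0569, with array weights. Bdnf has several promoters and its single cluster, from 109514857 to 109567200 on the plus strand of build mm9 (the file gives no chromosome), cannot separate its transcripts, whose most upstream window is printed above.

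Ntf3 (neurotrophin-3, the main ligand of Ntrk3) differed between groups mainly through 1 array. Its values were 0, 0.79 and -0.01 on the controls and 0.13, 0.47 and -1.53 on the cKO arrays, so that cKO replicate 3 lay below all others while the other two cKO arrays lay inside the control range. The cKO minus control difference was -0.57 ± 0.43 (95% interval -1.49 to 0.35, limma adjusted p 0.641). Without cKO replicate 3 it was 0.04, and without cKO replicate 1 it was -0.79. Its interval reaches past a 2-fold difference, so a difference of that size lies within the error of these arrays. The cluster covers 126051430 to 126114939 on the minus strand of mm9.

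Ntf5 (the neurotrophin also called NT-4/5, another Ntrk2 ligand) had nearly equal group means. It read 0.03, -0.22 and 0 on the controls and -0.05, -0.46 and 0.29 on the cKO arrays. These ranges overlap, with the cKO values spread more widely. The log2 difference was -0.01 ± 0.24, with a 95% interval from -0.52 to 0.51 (limma adjusted p 0.993), at 52669065 to 52672549 on the plus strand of mm9. Differences larger than these bounds lie outside the interval, while smaller ones cannot be told from 0 with these arrays.

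None of the GDNF family ligands was called. Artn (artemin, which binds the co-receptor GFR-alpha-3 found on nociceptive neurons) read 0.09, 0 and -0.42 on the controls and 0.35, 0.40 and 0.43 on the cKO arrays. The cKO arrays were close to each other (SD 0.04) and above every control (SD 0.27). The log2 difference was 0.51 ± 0.22, that is 1.42-fold, with a 95% interval from 0.04 to 0.98, an unadjusted p of 0.0366 and a limma adjusted p of 0.356. It was 0.53 without cKO replicate 1, and 0.35 without control replicate 3, the lowest control. Its cluster covers 117598766 to 117602368 on the minus strand of mm9.

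Gdnf (glial cell line-derived neurotrophic factor, which binds GFR-alpha-1) read -0.28, 0.29 and 0 on the controls and -0.25, -0.63 and -0.01 on the cKO arrays. Only cKO replicate 2 lay below all controls. The log2 difference was -0.30 ± 0.24 (95% interval -0.82 to 0.22, limma adjusted p 0.671), over 7760846 to 7787575 on the plus strand of mm9. Nrtn (neurturin, which binds GFR-alpha-2) read 0.60, -0.10 and 0 on the controls and 0.15, -0.01 and 0.22 on the cKO arrays, all of the latter inside the control range. Its log2 difference was -0.05 ± 0.24 (95% interval -0.56 to 0.47, limma adjusted p 0.96), over 56890748 to 56896978 on the minus strand. The sign of the Nrtn difference turned to 0.17 without control replicate 1.

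Of the receptors, Ntrk3 (TrkC, the receptor of neurotrophin-3) read 0.27, 0 and -0.21 on the controls and 0.29, 0.69 and 0.96 on the cKO arrays. The groups were apart by little: the lowest cKO array, replicate 1, exceeded control replicate 1 by the gap between 0.29 and 0.27. The log2 difference was 0.63 ± 0.24, that is 1.54-fold, with a 95% interval from 0.11 to 1.14, an unadjusted p of 0.0216 and a limma adjusted p of 0.284. It was 0.81 without cKO replicate 1 and 0.47 without cKO replicate 3. The cluster covers 85337445 to 85722861 on the minus strand of mm9. Ntrk2 and Ntrk3 are both known to give full-length kinase receptors and truncated forms without the kinase, which 1 value per gene cannot separate.

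Ntrk2 (TrkB, the receptor of BDNF) read -0.32, 0.64 and 0 on the controls and -0.0044, 0.09 and -0.55 on the cKO arrays. The controls alone spanned most of the range of all 6 arrays. Its cKO minus control difference was -0.26 ± 0.28 (95% interval -0.86 to 0.34, limma adjusted p 0.757), over 58907957 to 59231337 on the plus strand of mm9. Ngfr, which binds all neurotrophins and marks Schwann cells among others, read 0.47, 0 and -0.21 on the controls and -0.03, 0.02 and -0.12 on the cKO arrays, which all lay inside the control range. Its log2 difference was -0.13 ± 0.23 (95% interval -0.63 to 0.37, limma adjusted p 0.862), over 95430127 to 95449109 on the minus strand.

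**Figure D2:**
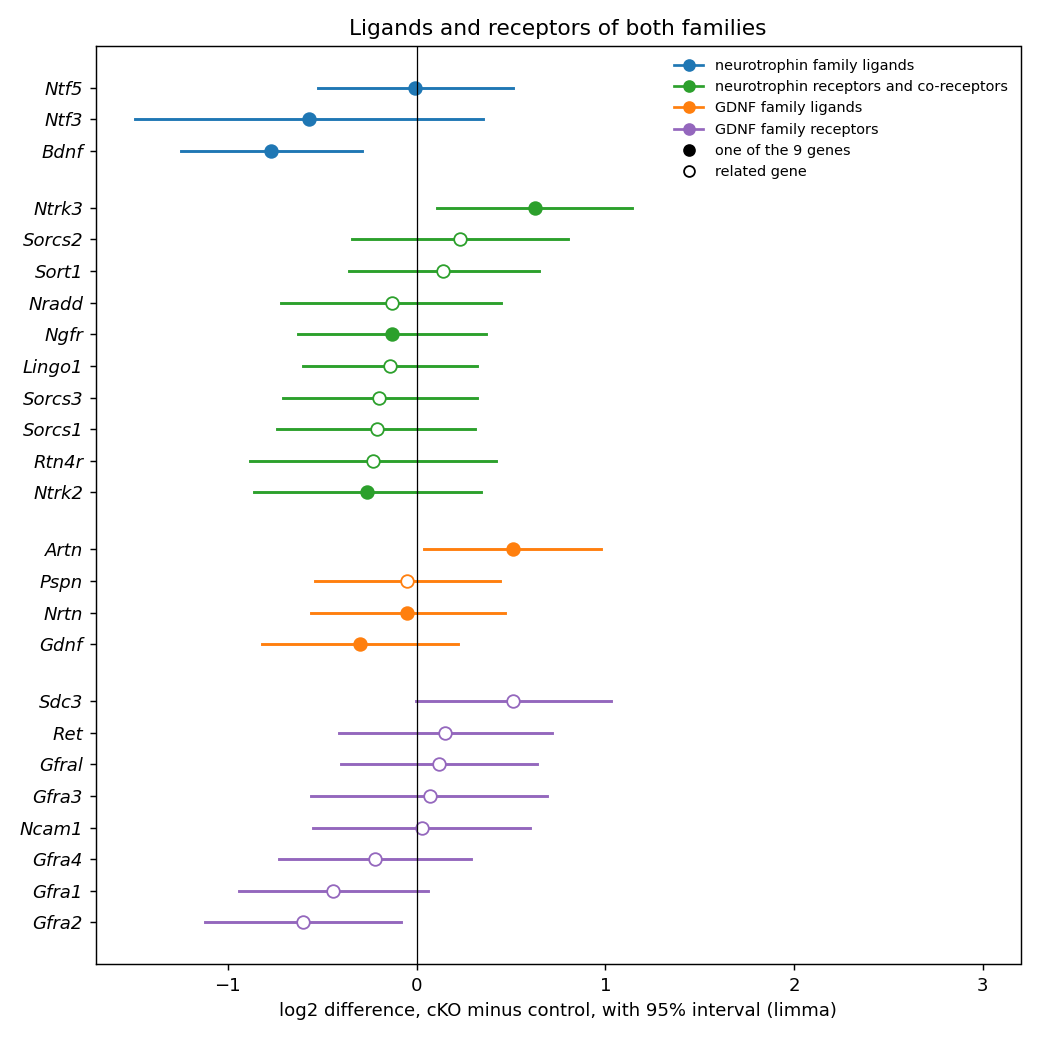
Log2 difference, cKO minus control, with its 95% interval from limma (horizontal axis) for ligands and receptors of the neurotrophin and GDNF families, the 9 genes filled and related genes open. The intervals of Ntrk3 and Artn lie above 0 and those of Bdnf and Gfra2 below, and no gene shown passed the adjusted test.

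Ordered by their differences, the 9 ran from Bdnf (-0.77) through Ntf3 (-0.57), Gdnf (-0.30), Ntrk2 (-0.26), Ngfr (-0.13), Nrtn (-0.05), Ntf5 (-0.01) and Artn (0.51) to Ntrk3 (0.63). The 95% intervals of neighbours in that order all overlapped, so the order between neighbours is not resolved. The interval of Bdnf, which ends at -0.29, did not reach those of Artn and Ntrk3, which begin at 0.04 and 0.11. For 6 of the 9 genes the whole interval lay within a 2-fold difference in either direction, the exceptions being Bdnf, Ntf3 and Ntrk3. With single arrays left out Bdnf, Gdnf, Artn and Ntrk3 stayed on their side of 0, while Ntf3, Ntf5, Nrtn, Ngfr and Ntrk2 crossed 0 at least once. Without cKO replicate 1, the array apart in sex-linked genes, the differences of Gdnf, Ntrk2, Ngfr, Nrtn and Ntf5 were -0.32, -0.34, -0.14, -0.06 and -0.02.

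**Figure D3:**
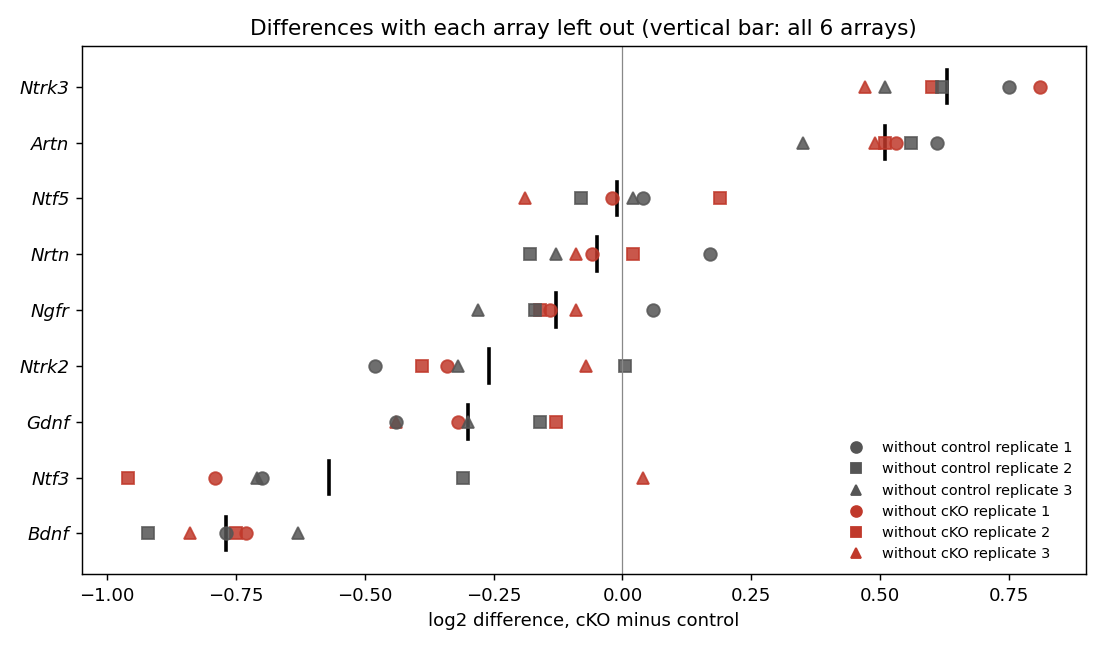
Log2 difference, cKO minus control, of the 9 genes (horizontal axis) with all 6 arrays (black bar) and with each array left out in turn (points, shape for the replicate number, grey for a control and red for a cKO array left out). The points of Bdnf stay between -0.92 and -0.63 and those of Ntrk3 between 0.47 and 0.81, while Ntf3 spans -0.96 to 0.04.

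The authors' deposited tables name 1 of the 9 genes. Their list of 1755 clusters that passed a percentile filter and a 1.5-fold limit holds Ntrk3, with a fold of 1.54 in the authors' deposited table, and their list of 681 clusters past the test holds none of the 9. Bdnf, at 1.71-fold lower in the cKO, is not in that fold list. Per the file headers the filter removed clusters in the bottom 20th percentile; rebuilt as all arrays of at least 1 group reaching the 20th percentile of the values of their own array, it gave the same entry for 2656 of 2656 clusters past the fold limit. Bdnf did not pass it: every cKO array was below its percentile (-0.306, -0.306 and -0.389), and control replicate 2, at -0.29, was below its own (-0.13). Over the whole array this filter kept 1395 of 1412 clusters past the limit upward and 360 of 1244 past it downward. As rebuilt, the cut acts on values relative to the control median and not on expression level. A cluster lower in the cKO thus tends to fall under the cut on the cKO arrays. Of the 9 genes, 5 passed the filter, and Bdnf, Ntf5, Gdnf and Ntrk2 did not, which does not show that these 4 were weakly expressed.

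Genes with the most similar pattern over the 6 arrays were listed for the 3 genes of smallest p, as a description. For Bdnf these were Kcnt2, Eef1a2 and Faah, with Pearson correlations of 0.986, 0.984 and 0.981. For Ntrk3 they were Acsbg2, Fbxw18 and Gpaa1 (0.998, 0.997 and 0.995), and for Artn Olfr119, Hfe and Hspg2 (each 0.997). Over only 6 arrays that share their normalisation, 333 genes correlated above 0.9 with Bdnf, 421 with Ntrk3 and 360 with Artn.

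In the wider pathway, 4 related genes passed the test, and they encode a protease inhibitor, a pair of proteases and a growth factor. Of 66 measured related genes other than the 9, limma called 3 higher and 1 lower, where 1.24% and 0.697% of all genes were called. Their median log2 difference was 0.05 against -0.0044 over all genes. Serpini1 (neuroserpin, an inhibitor of tissue plasminogen activator, a protease of the cascade that can cut pro-BDNF) fell by 2.20 on the log2 scale, with 0, 0.32 and -0.03 on the controls and -1.95, -2.08 and -2.27 on the cKO arrays. The groups lay far apart, and the mean corresponds to 21.8% of that of the controls (SE 0.21, limma adjusted p 9.86e-05). The difference stayed between -2.27 and -2.08 with any array left out, with limma adjusted p of at most 0.00288, while the methods' t-test gave an adjusted p of 0.0616. That test also left Mmp9, Pcsk5, Igf1 and Ctnnb1 uncalled.

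The called proteases were in the same list as Serpini1, of 11 measured proteases and inhibitors, which had a median of 0.19. Mmp9, a gelatinase able to cut pro-neurotrophins, read -0.83, 0 and 0.12 on the controls and 3.82, 1.67 and 2.84 on the cKO arrays. It rose by 3.01 ± 0.43 (limma adjusted p 0.00218, and 0.051 without control replicate 1). Pcsk5, a proprotein convertase, read 0, 0.39 and -0.35 on the controls and 1.66, 0.84 and 1.0 on the cKO arrays. Its rise of 1.15 ± 0.27 was at the edge of the test (limma adjusted p 0.0496), and it was no longer called when control replicate 1 or 3 (0.157 and 0.212) or cKO replicate 1 or 3 (0.191 and 0.159) was dropped, when arrays were centred (0.0663) or when clusters were tested singly (0.0743).

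Igf1, an insulin-like growth factor that many cell types secrete, was the 1 called of 10 other neurotrophic proteins. It read 0.30, 0 and -0.29 on the controls and 1.27, 0.81 and 1.24 on the cKO arrays. Its rise was 1.11 ± 0.24 (limma adjusted p 0.0298), a call lost when control replicate 2 or 3 (0.0617 and 0.146) or cKO replicate 1 or 3 (0.113 and 0.159) was dropped. In the same list Nrg1, an ErbB ligand that acts on Schwann cells, differed by 0.65 ± 0.23 (limma adjusted p 0.231).

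Limma called 0 genes in each of the other lists. The share of all genes at an unadjusted p under 0.05, for the counts below, was 12.5%. Among 10 neuropoietic cytokine genes, 3 of them at an unadjusted p under 0.05, Lifr, a receptor subunit for leukaemia inhibitory factor and related cytokines, differed by -0.95 ± 0.22 with a limma adjusted p of 0.0503. It read -0.12, 0 and 0.41 on the controls and -0.76, -0.76 and -1.05 on the cKO arrays. It passed with array weights (limma adjusted p 0.0179), robust variances (0.042) and the replicate number as a block (0.0461). Lifr also passed with the authors' filter (0.0325). It met that filter only through the control arrays, where it was higher, so that pass adds no support. Its ligand Lif differed by 1.02 ± 0.33 (limma adjusted p 0.183), with 0.40, -0.32 and 0 on the controls and 0.34, 1.81 and 1.0 on the cKO arrays, and passed without cKO replicate 1 (0.0432). Among 8 GDNF receptor genes, 1 of them at an unadjusted p under 0.05, Gfra2, the neurturin co-receptor, differed by -0.60 ± 0.24 and Sdc3, a syndecan that binds GDNF, by 0.51 ± 0.24. The list as a whole lay between -0.60 and 0.51 with a median of 0.05.

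The 7 neurotrophin receptors and co-receptors beside the 9 genes had differences from -0.23 to 0.23, a median of -0.14, and 0 at an unadjusted p under 0.05. Among 18 intracellular partners of the receptors, 3 of them at an unadjusted p under 0.05, Kidins220, a scaffold of Trk receptors, differed by 0.68 ± 0.26 and Frs3, an adaptor, by 0.50 ± 0.22, with limma adjusted p of 0.267 and 0.374. Kidins220 passed with array weights (0.0489). The median of that list was -0.0036. Pspn, persephin, the remaining GDNF family ligand, differed by -0.05 ± 0.23.

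**Figure D4:**
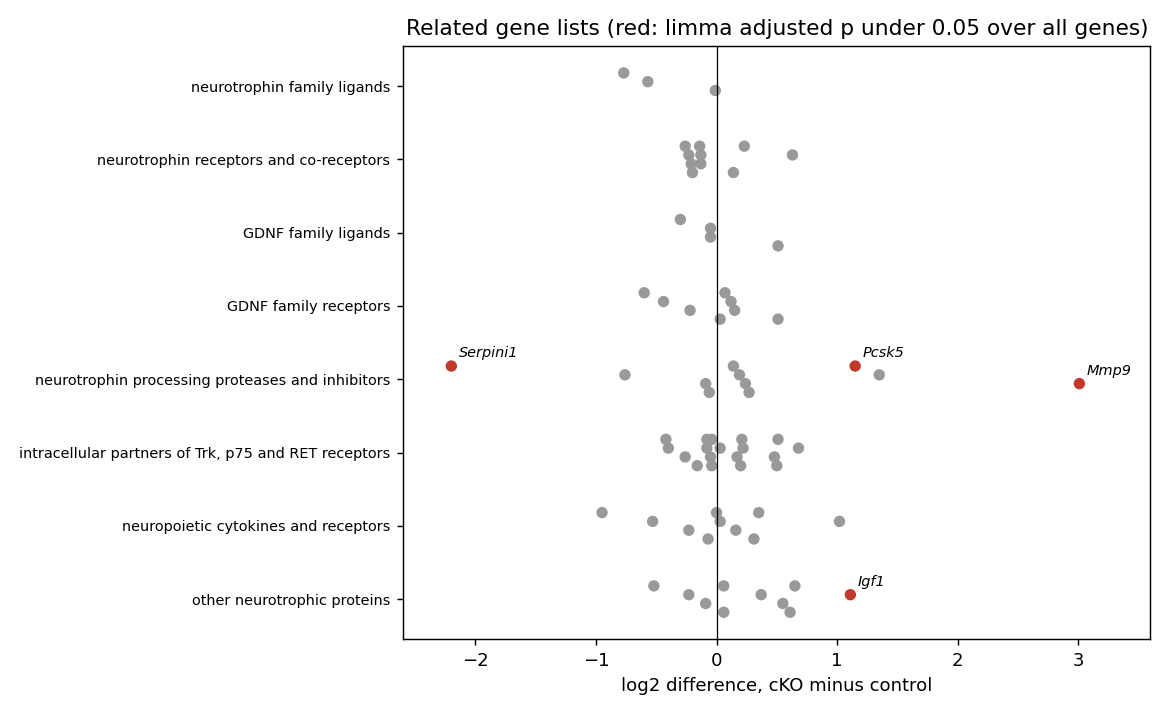
Log2 difference, cKO minus control (horizontal axis), of the genes shown from the 8 related lists (the 9 genes included), 1 point per gene with a small vertical offset for legibility. The red points are the 4 called genes Serpini1 (-2.20), Igf1 (1.11), Pcsk5 (1.15) and Mmp9 (3.01).

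Markers of the cells that make or receive these factors were read on the same arrays, and their part in the values above was not tested. Over all genes limma called 1.94%, 12.5% had an unadjusted p under 0.05 and 19.4% did not overlap between groups. These are the shares for the counts below. Schwann cell markers had a list median of 0.20, 0 and -0.0015 on the controls and -0.15, -0.33 and -0.25 on the cKO arrays, without overlap. Limma called 0 of 14, with 2 at an unadjusted p under 0.05. Of these Egr2, a myelination factor (-1.02 ± 0.33, limma adjusted p 0.188), overlapped between groups, with control replicate 2 at -0.99 and cKO replicate 1 at -0.90. It passed without control replicate 2 (limma adjusted p 0.00826) but not without control replicate 3 (0.554). Of 11 neuron and axon genes limma called 0 and 2 had an unadjusted p under 0.05, in opposite directions: Stmn2 (0.95 ± 0.34), which passed with array weights (limma adjusted p 0.0392), and Nefl, the light neurofilament (-0.55 ± 0.21). Their list medians of -0.04 to 0.22 on both groups overlapped.

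Merkel cell markers had list medians of 0.26, -0.02 and 0 on the controls and -0.34, -0.15 and -0.17 on the cKO arrays. Of the 8 genes 7 differed downward and 1 upward, and 1 was called, where 1.94% of all genes were. Atoh1, the factor that specifies Merkel cells, fell by 1.0 on the log2 scale (SE 0.22, limma adjusted p 0.0386), a call lost when control replicate 2 or 3 (0.117 and 0.164) or any of cKO replicates 1 to 3 (0.166, 0.05 and 0.14) was dropped. Chga, chromogranin A, differed by -0.58 ± 0.25. Of 7 basal epidermal genes Krt15 fell by 1.45 on the log2 scale (SE 0.23) and was the 1 called, Krt14 differed by 0.37 ± 0.20, and list medians were 0 on each control and -0.04, -0.11 and -0.12 on the cKO arrays. Sweat gland markers, led by Slc12a2 (-0.54 ± 0.22) and Aqp5 (-0.47 ± 0.23), were at 0.13, 0 and -0.10 against -0.21, -0.12 and -0.23, with 0 of 6 called and 1 at an unadjusted p under 0.05.

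Bone and endothelial markers and most fibroblast markers lay on the other side. Of 6 bone genes Ibsp (3.29 ± 0.33), Ifitm5 (2.54 ± 0.27), Sp7 (1.57 ± 0.28) and Alpl (1.41 ± 0.23) rose, with list medians of 0, 0.06 and -0.39 on the controls and 1.14, 1.63 and 1.54 on the cKO arrays. The call of Sp7 ended without control replicate 1 or cKO replicate 3 (limma adjusted p 0.0551 and 0.0882), and the methods' t-test called none of the bone, fibroblast, basal epidermal or Merkel genes named here. Of 6 fibroblast genes Col1a1 (2.01 ± 0.29) and Col3a1 (1.41 ± 0.25) rose, the latter with a limma adjusted p of 0.0693 without cKO replicate 3, and medians were 0.24, 0 and -0.45 against 0.68, 0.39 and 0.66. Dcn of the same list, named after its values were seen, went the other way without being called, with 0.37, 0 and -0.02 on the controls against -0.18, -0.35 and -0.23 (limma adjusted p 0.531). All 6 endothelial genes were higher on every cKO array than on every control, where 19.4% of all genes did not overlap in either direction. Of the 6, 5 had an unadjusted p under 0.05 (12.5% of all genes) and 0 were called, with Pecam1 at 0.78 ± 0.24 and Emcn at 0.90 ± 0.29. Their list medians ran from -0.27 to 0.0037 on the controls and from 0.36 to 0.87 on the cKO arrays. Of 8 pericyte and smooth muscle genes 0 were called and 2 had an unadjusted p under 0.05, Acta2 (0.81 ± 0.23) and Pdgfrb (0.57 ± 0.24), while Pecam1 (0.0471) and Acta2 (0.0266) passed with array weights. The pericyte medians, 0 to 0.16 against 0.15 to 0.34, overlapped. Melanocyte genes (Tyr 0.37 ± 0.21, Pmel -0.17 ± 0.25) and mast cell genes (Cpa3 -0.10 ± 0.28, Ms4a2 -0.05 ± 0.23) had 0 called of 7 and of 5, and 0 at an unadjusted p under 0.05. Their medians overlapped, at 0 to 0.42 against -0.02 to 0.21 for melanocytes and -0.01 to 1.0 against -0.0042 to 0.33 for mast cells.

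**Figure D5:**
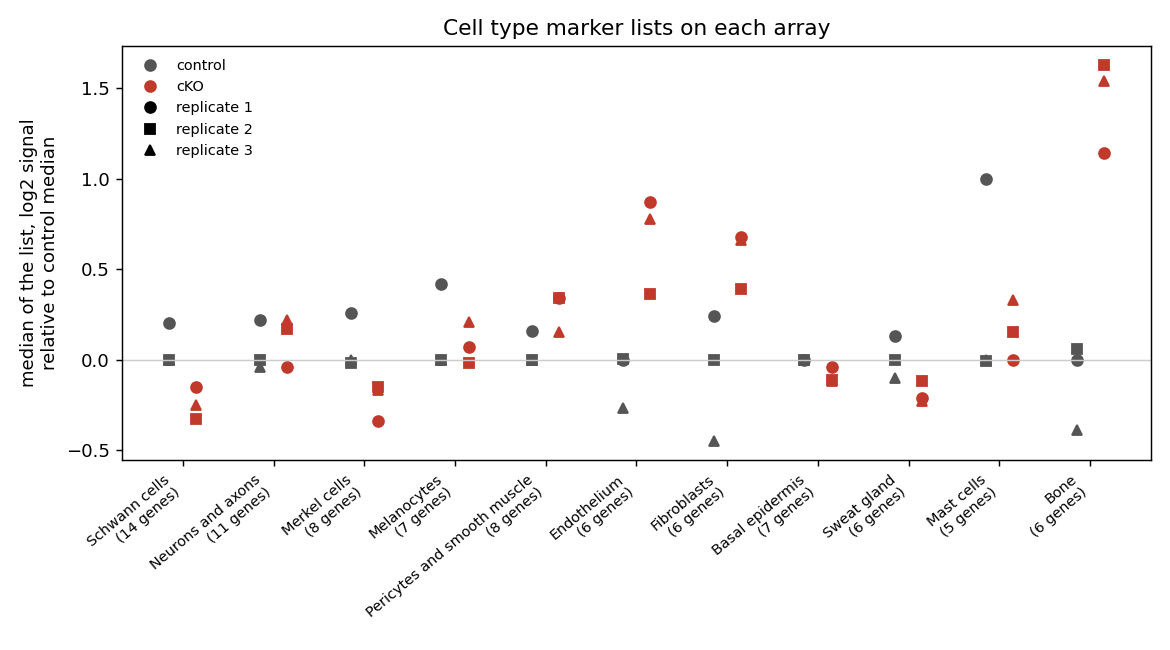
Median log2 signal relative to the control median (vertical axis) of 11 cell type marker lists on each of the 3 control (grey) and 3 cKO (red) arrays, with marker shape giving the replicate number. The bone list reads 1.14 to 1.63 on the cKO arrays against -0.39 to 0.06 on the controls, and the Schwann cell list -0.33 to -0.15 against -0.0015 to 0.20.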

How the data were processed

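The authors' methods sheet, deposited with the data, names PLIER16 for summarising and quantile-normalising the signals; the deposited values are log2, relative to the control median of each cluster. Per the file headers, annotation was release na31 on build mm9, and the authors' deposited tables add a signed fold score (cKO over control, negative reciprocal where lower), p-values and corrected p-values after percentile and 1.5-fold filters. The headers name a whole-transcript array and the labels a 3′ labelling kit, a point not settled here. The series' value table was used, which differed from the workbook by at most 5e-05. Of 28853 clusters, 22971 carried 1 gene; their mean per gene gave 20793 genes, with symbols updated through Entrez identifiers (RefSeq, GRCm38.p6, 21924 clusters matched). Because the values carry no level, neither depth nor detection can be given, and the number of arrays limits the precision.

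Groups and replicate numbers follow the sample titles. The samples are labelled as biological replicates without naming separate animals, so each p-value reflects only the variation among these 6 arrays. The sex-linked genes set cKO replicate 1 apart as another animal than cKO replicates 2 and 3, and say nothing of whether the other arrays share animals. The test was limma 3.58.1 (R 4.3.3; lmFit, eBayes, prior degrees of freedom 8.79) without covariates, with Benjamini-Hochberg adjustment over all genes at 0.05, after a check on simulated data. Errors are limma standard errors and intervals are at 95%. The genes and lists were chosen with earlier results of these data known. Of the related and marker lists the text names called genes and those 2 of smallest p; Xist, Ddx3y, Pspn and Dcn were named after their values were seen. A few genes that this rule would name are not reported here. Same-numbered arrays did not deviate together (correlations 0.042, 0.138 and -0.085), so the replicate number served only as an alternative block. Other alternatives were centred arrays, array weights, robust variances, the methods' t-test (named in the headers), the authors' filter, clusters singly, workbook values and leaving out each array. The array weights ran from 0.384 for control replicate 1 to 2.223 for cKO replicate 1. The latter is the array apart in sex-linked genes, so passes with array weights lean most on it. Python 3.11.15 and matplotlib 3.10.9 made tables and figures.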

Additional observations from a re-analysis of the deposited data

How the results depend on the processing

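None of the 9 genes was called under any of the 14 alternatives, which included the replicate block (Bdnf limma adjusted p 0.107). With 1 array left out the log2 differences ranged from -0.92 to -0.63 for Bdnf, -0.96 to 0.04 for Ntf3, -0.19 to 0.19 for Ntf5, -0.44 to -0.13 for Gdnf, -0.18 to 0.17 for Nrtn, 0.35 to 0.61 for Artn, -0.28 to 0.06 for Ngfr, -0.48 to 0.0041 for Ntrk2 and 0.47 to 0.81 for Ntrk3. Signs turned for Ntf3 without cKO replicate 3 (0.04), for Ntf5 without cKO replicate 2 (0.19), control replicate 1 (0.04) or control replicate 3 (0.02), for Nrtn without cKO replicate 2 (0.02) or control replicate 1 (0.17), for Ngfr without control replicate 1 (0.06) and for Ntrk2 without control replicate 2 (0.0041). With array weights Ntf5 was at 0.03, Nrtn at 0.12, Pmel at 0.03, Cpa3 at 0.14 and Ms4a2 at 0.02. Pmel (0.04), Cpa3 (0.26) and Ms4a2 (0.15) also turned without control replicate 1, and Ms4a2 without cKO replicate 1 (0.03); with 1 array left out they reached -0.36, -0.30 and -0.15 at the lowest. The authors' filter leaves 4 of the 9 genes untested.

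Over the whole array 258 genes were higher and 145 lower, against 523 and 305 with array weights and 10 and 3 with the methods' t-test. The lower count was 47 with the authors' filter and 218 with the replicate block, and leaving out 1 array gave 133 to 261 higher and 59 to 165 lower, the lowest without cKO replicate 3. Of the related genes 3 were called higher and 1 lower, against 5 and 2 with array weights, 0 and 0 with the methods' t-test, and 2 lower with the authors' filter, robust variances or the replicate block. With the filter these 2 were Serpini1 and Lifr, both kept only through the control arrays, so that count adds no support. With 1 array left out the related counts were 1 to 4 higher and 1 lower each time. Apart from the filter and the arrays left out, which change what is tested, the cause of these shifts was not tested.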
